A study of Mus musculus with 6 samples.

Results

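The vascular endothelial growth factor (VEGF) family of the mouse was described here in bulk RNA-seq of bone cells, as 10 genes taken by name from the 29616 genes of the deposited table. They comprised 5 ligands (Vegfa, Vegfb, Vegfc, Vegfd and Pgf), 3 receptor tyrosine kinases (Flt1, Kdr and Flt4) and 2 co-receptors (Nrp1 and Nrp2). The samples were bone cells of C57BL/6 mice (C57BL/6J in the methods of the study), 3 control libraries and 3 libraries of mice given dexamethasone, a synthetic glucocorticoid. Per the methods of the study, the cells were Osteocalcin-positive cells sorted from bones freed of marrow, and the mice, 8 weeks old at the start, received 0.08 µg of dexamethasone per g of body weight daily for 4 weeks. The study names saline for the controls of its imaging experiments and calls the controls of the sorted cells non-treated, so whether the control mice of the sequencing received saline is unclear. The sources used here do not give the sex of the mice or whether a library came from 1 mouse or from several, so the p-values measure only the spread between these libraries.

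VEGF ligands are secreted dimers that bind receptor tyrosine kinases and direct the growth, survival and permeability of vessels. Vegfa acts through Kdr (called Flk1 in the study), the main signalling receptor of blood endothelium, and Flt1, which binds Vegfa tightly but signals weakly and also exists as a soluble trap. Vegfb and Pgf bind Flt1 alone, Vegfc and Vegfd bind Flt4, the receptor of lymphatic endothelium, and neuropilins hold ligands near the kinases and serve as receptors of class 3 semaphorins. In bone, VEGF made by hypertrophic chondrocytes and osteoblast lineage cells couples vessel growth to bone formation.

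The promoters of the 4 members below are shown because they hold the ligand and the neuropilin with the highest treated levels per length, Vegfa and Nrp1, and the members that fell most, Vegfd and Nrp2. The windows run 5′ to 3′ from 250 bases before to 50 bases after an annotated start and were taken from RefSeq on GRCm38.p6. They lie at chr17:46032328-46032627 on the minus strand for Vegfa, chr8:128358823-128359122 on the plus strand for Nrp1, chrX:164373272-164373571 on the plus strand for Vegfd and chr1:62703067-62703366 on the plus strand for Nrp2. Capitals mark 4 motifs wherever they occur on either strand. The GC box, a common site of Sp1 and its relatives, was searched as GGGCGG, and the TATA box, which positions the start of transcription, was searched as TATAAA. The half-site that the glucocorticoid receptor recognises was searched as AGAACA, and the core of the hypoxia response element, whose letters also occur in E boxes, was searched as ACGTG.
Vegfa: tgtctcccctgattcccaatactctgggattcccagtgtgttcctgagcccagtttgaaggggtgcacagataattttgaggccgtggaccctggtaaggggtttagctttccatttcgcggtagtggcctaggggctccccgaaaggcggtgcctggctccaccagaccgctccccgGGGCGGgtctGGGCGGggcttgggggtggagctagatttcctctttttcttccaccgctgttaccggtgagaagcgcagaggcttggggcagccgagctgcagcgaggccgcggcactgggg
Nrp1: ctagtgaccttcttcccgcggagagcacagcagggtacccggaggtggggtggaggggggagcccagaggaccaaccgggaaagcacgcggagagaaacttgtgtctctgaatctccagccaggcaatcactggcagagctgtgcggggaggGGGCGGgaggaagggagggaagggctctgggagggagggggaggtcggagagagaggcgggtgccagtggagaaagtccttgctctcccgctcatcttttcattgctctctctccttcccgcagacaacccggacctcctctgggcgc
Vegfd: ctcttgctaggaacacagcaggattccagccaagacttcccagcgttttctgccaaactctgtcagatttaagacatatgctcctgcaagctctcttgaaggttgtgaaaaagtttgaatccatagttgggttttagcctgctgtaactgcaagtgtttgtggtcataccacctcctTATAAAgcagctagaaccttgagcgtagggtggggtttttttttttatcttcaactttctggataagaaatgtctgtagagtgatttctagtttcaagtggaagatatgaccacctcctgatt
Nrp2: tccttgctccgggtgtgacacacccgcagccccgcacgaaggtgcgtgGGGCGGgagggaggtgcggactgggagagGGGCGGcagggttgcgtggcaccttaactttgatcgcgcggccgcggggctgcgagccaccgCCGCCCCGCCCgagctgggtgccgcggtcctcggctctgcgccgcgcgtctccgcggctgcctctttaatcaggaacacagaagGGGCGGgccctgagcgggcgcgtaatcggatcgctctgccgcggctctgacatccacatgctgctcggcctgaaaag
These windows differed in their letters. The Nrp2 window held 5 GC boxes, of which one pair shares a base, the Vegfa window 2 and the Nrp1 window 1, while the Vegfd window held none and instead carried a TATA box at position -73. The Vegfd window was 42.0% G or C, against 70.7% in Nrp2, 64.0% in Nrp1, 62.0% in Vegfa and a median of 52.7% over all 32851 mouse windows. Over the 12 windows of the 10 members, 10 held a GC box, 2 (Flt1 and Vegfd) a TATA box, 1 (a second Vegfa start) the hypoxia core and 0 the glucocorticoid half-site. Of all windows, 35.7% held a GC box, 13.6% a TATA box, 19.6% the hypoxia core and 19.0% the half-site. Such matches describe letters only, and a motif outside a window was not looked for.

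Levels were the deposited normalized counts, that is, read counts divided by a size factor for each library, and the libraries held 72596611 to 89910728 reads each. Genes are said to have risen or fallen at an adjusted p under 0.05 in limma, and are termed called where the log2 difference was also 1 or more in size. Fold changes are dexamethasone minus control on the scale of log2(normalized count + 1). Dexamethasone replicate 3 stood apart from the other treated libraries (chi-square per degree of freedom 26.1 and 18.1, against 3.27 to 7.44 for the other pairs of replicates). For cells sorted on Osteocalcin, Bglap was low, at 98.2 to 122.1 normalized counts in control. The level of the related marker Bglap2, also called lower, is not given here. The summed level of 10 osteoblast markers was 1976630 to 2103790 in control and 757071 to 851498 after dexamethasone, and nearly all of it was the collagen genes Col1a1 and Col1a2. Of these 10 markers 8 were called lower, while Dmp1, a marker of osteocytes, was called higher and Phex rose without being called. Pericyte and smooth muscle markers summed to 172776 to 182225 in control and 43803 to 47776 after dexamethasone, a fall carried by Acta2 (144918 to 12449). Of the 7 tested, 2 rose, 3 fell and 2 did not pass, with Acta2 and Notch3 called lower, at a median log2 fold change of -0.08. Cspg4 rose (7548 to 10185) and Pdgfrb (22706.5 to 21513.4) did not pass. Abcc9 had at most 3 reads in every library. Chondrocyte markers summed to 5963 to 6424 in control and 22120 to 24973 after dexamethasone, with Sox9 and Col2a1 called higher and Comp lower. Nearly all of this sum was Sox9 (4609 to 17406) and Col2a1 (1517 to 5687). Only 3 of the 8 markers passed the filter, and Col9a1 and Matn1 had at most 3 reads in every library. Blood cell markers, 11 in the table, summed to 993 to 1066 and 2156 to 2414. Among them Cd53, Itgb2 and Cd68 were called higher and Laptm5 and Coro1a lower, at a median log2 fold change of 0.09 over 9 tested. S100a9, the most abundant blood cell marker over the 6 libraries, went from 508 to 545 and did not pass. Cd68 went from 173 to 596 and Itgb2 from 54.6 to 503. Of the 9 tested, 4 rose and 3 fell. The part of these markers in the differences below was not tested.

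Of the 10 members, 9 passed the filter of a mean of at least 10 normalized counts, and in all 9 the 3 dexamethasone libraries did not overlap the 3 control libraries. Vegfa, Pgf, Flt1, Kdr and Nrp1 rose, and Vegfb, Vegfc, Vegfd and Nrp2 fell. In the whole table of 17442 tested genes, 37.2% rose and 35.2% fell at the same cut-off, and 38.4% stood higher and 36.4% lower without overlap between the groups. A difference in either direction was thus common over the table, and the members are described below by its size. Vegfd and Nrp2 were called lower, with a background of 10.6% of genes called lower, and 0 members were called higher, with a background of 11.7%. In edgeR and DESeq2 on the recovered reads, 0 were called higher as well, while in limma the 5 that rose also had an unadjusted p under 0.05. Without dexamethasone replicate 3, 5 members rose and 3 fell, since Vegfc no longer passed, 1 (Pgf) was called higher and 2 lower. In bulk cells, fewer cells of a type and less RNA per cell cannot be told apart.

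**Figure D1:**
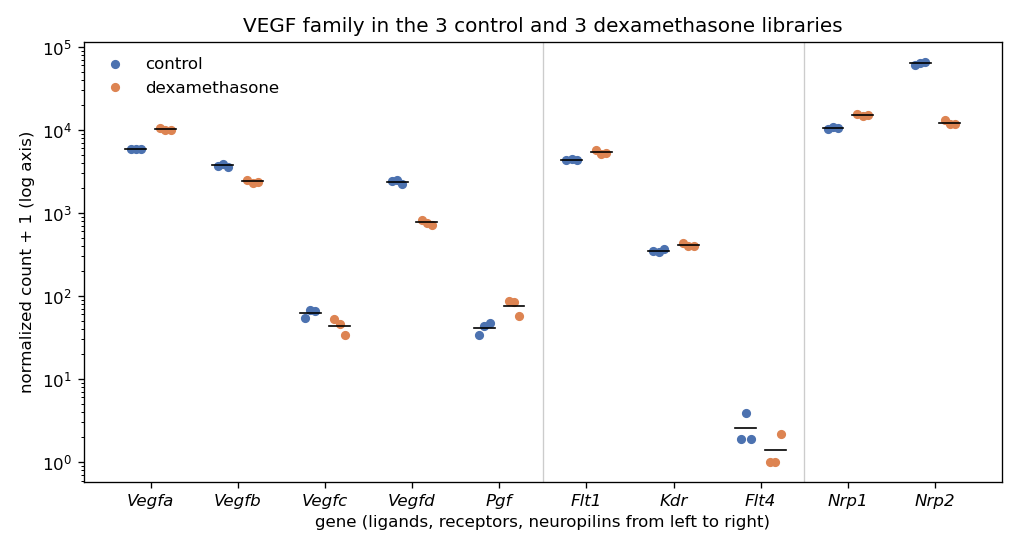
Normalized counts plus 1 (log axis) of the 10 genes in each of the 3 control (blue) and 3 dexamethasone (orange) libraries, with black lines at the group means. The groups do not overlap for any gene but Flt4, which had at most 3 reads in a library, and the widest gap is that of Nrp2.

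Among the ligands, Vegfa, the main factor of blood vessel growth, rose. Its normalized counts were 5929, 5848 and 5862 in the control libraries and 10464, 9948 and 9963 after dexamethasone. The control libraries lay within a narrow band and every dexamethasone library stood well above it. The means were 5879.5 ± 43.3 and 10125 ± 294 (SD, n = 3 each), a ratio of 1.72 and a log2 fold change of 0.78 with a 95% confidence interval of 0.71 to 0.86 (limma, adjusted p = 3.74e-16). The counts sum over the 13 annotated transcripts of the gene, so the isoforms that differ in heparin binding were not resolved.

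Pgf, placental growth factor, was scarce and rose by a similar log2 difference with a far wider error. Its normalized counts were 33.1, 42.1 and 46.6 in control and 84.9, 83.9 and 55.8 after dexamethasone, from 36 to 53 and 48 to 89 reads. The first and second dexamethasone libraries lay close together and the third stood near the upper control value. The log2 fold change was 0.86 with a 95% confidence interval of 0.417 to 1.296 (limma, adjusted p = 0.000911), and it came to 1.05 without dexamethasone replicate 3, the only one of the 17 alternatives under which a member was called higher.

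Vegfb, a ligand of Flt1 known for a role in lipid uptake and survival more than in sprouting, fell. Its normalized counts were 3703, 3927 and 3578 in control and 2513, 2319.6 and 2357 after dexamethasone. Every dexamethasone library stood below every control library, at a log2 fold change of -0.64 with a 95% confidence interval of -0.73 to -0.55 (limma, adjusted p = 2.19e-12).

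Vegfd, which drives lymphatic growth through Flt4, had the largest fall of the ligands. Its normalized counts were 2414.5, 2481 and 2263 in control and 829.9, 765 and 713 after dexamethasone. The means of 2386 ± 112 and 769 ± 58.7 (SD, n = 3 each) differed 3.10-fold, with a log2 fold change of -1.63 and a 95% confidence interval of -1.75 to -1.52 (limma, adjusted p = 1.68e-18). The other lymphatic ligand, Vegfc, was scarce, at 53.2, 66.5 and 65.0 normalized counts in control and 51.5, 44.7 and 32.6 after dexamethasone. The lowest control library and the highest dexamethasone library nearly met. The log2 fold change was -0.53 with a 95% confidence interval of -0.97 to -0.09 (limma, adjusted p = 0.0293). This adjusted p ranged from 0.0119 to 0.158 over the alternatives and missed 0.05 in 7 of them, including the fits without control replicate 2 (0.0937), without control replicate 3 (0.0861) and without dexamethasone replicate 3 (0.158, at a log2 fold change of -0.35).

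Of the receptors, Flt1 and Kdr both rose by a small amount. Flt1 normalized counts were 4294, 4418 and 4403 in control and 5687, 5159 and 5277 after dexamethasone. They sum over the 6 annotated transcripts of the gene, so the soluble form was not resolved here or in the receptor sums below. Kdr normalized counts were 343, 334 and 367 in control and 437, 401 and 403 after dexamethasone. Neither receptor approached the log2 cut-off of 1, at a log2 fold change of 0.30 for Flt1 (95% confidence interval 0.21 to 0.38, limma, adjusted p = 3.61e-07) and of 0.25 for Kdr (0.08 to 0.42, adjusted p = 0.00812). With every library scaled to the same total, which shifted the median of all tested genes by -0.11, the Kdr difference was 0.14 and did not pass (limma, adjusted p = 0.124) and that of Flt1 was 0.18. Quantile normalization gave 0.12 for Flt1, which still passed. Flt4, the lymphatic receptor, had 1, 3 and 1 reads in control and 0, 0 and 1 after dexamethasone. These values lie at or under the 3 reads that a count of 0 allows, by counting error only, and no fold was computed.

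Endothelial cells are the textbook site of these receptors, so the levels of endothelial markers stand beside them. The summed level of 15 measured markers was 2433 to 2563 normalized counts in control and 3237 to 3818 after dexamethasone. Vwf and Ptprb made up most of it and moved in opposite directions, Vwf rising from 1825 to 3097 and Ptprb called lower from 518 to 217. The other 13 summed to 147 to 175 in control and 185 to 216 after dexamethasone. Of the 8 tested, 4 rose, with Esam called higher, 1 fell and 3 did not pass. Cdh5, Tie1 and Ecscr, which define endothelium, had at most 3 reads in every library, and the lymphatic regulator Prox1 likewise. The 3 lymphatic markers in the table summed to 5.51 to 14.9 and 17.4 to 23.8. The part of endothelial and blood cell markers in the receptor differences was not tested.

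The neuropilins moved in opposite directions. Nrp1, the co-receptor of Vegfa and semaphorin 3A, had 10256, 10950.4 and 10530.2 normalized counts in control and 15653.5, 14866 and 15104.5 after dexamethasone. Every treated library stood above every control library, at a ratio of 1.44 and a log2 fold change of 0.52 with a 95% confidence interval of 0.45 to 0.60 (limma, adjusted p = 2.25e-12), which was 0.33 under quantile normalization. Nrp2, the co-receptor of Vegfc, Vegfd and semaphorins 3C and 3F, had 61198, 64191 and 65105 in control and 13197, 11799.6 and 11875.5 after dexamethasone. The control libraries lay close together and all 3 treated libraries stood far below them. The means of 63498 ± 2044 and 12291 ± 786 (SD, n = 3 each) differed 5.17-fold, with a log2 fold change of -2.37 and a 95% confidence interval of -2.46 to -2.28 (limma, adjusted p = 1.65e-24), the largest difference of the 9 tested members.

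**Figure D2:**
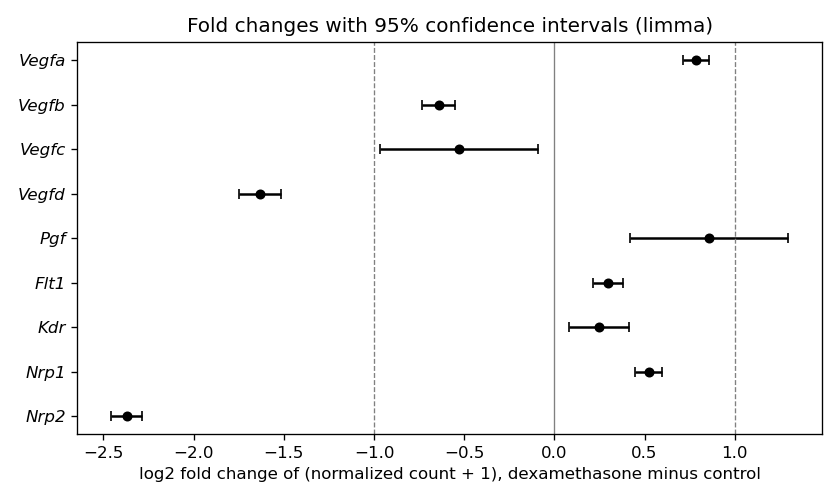
Log2 fold changes (points, dexamethasone minus control, of the normalized count plus 1) of the 9 tested genes with 95% confidence intervals (bars) and dashed lines at the log2 cut-off of 1 in each direction. Only Vegfd at -1.63 and Nrp2 at -2.37 lie beyond a dashed line, and the scarce genes Vegfc and Pgf have the widest intervals.

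Levels of different genes were compared per kilobase of exon. In control, Nrp2 stood first at 5362 normalized counts per kilobase, above Vegfb at 2328, Vegfa at 1372, Nrp1 at 1081, Vegfd at 991, Flt1 at 324, Kdr at 38.6, Vegfc at 25.2, Pgf at 14.0 and Flt4 at 0.192. No neighbours in that order overlapped between libraries. After dexamethasone the order was Vegfa at 2363, Nrp1 at 1554, Vegfb at 1493, Nrp2 at 1038, Flt1 at 398, Vegfd at 319, Kdr at 45.8, Pgf at 25.8, Vegfc at 17.5 and Flt4 at 0.0471, where Nrp1 overlapped Vegfb and Pgf overlapped Vegfc. Nrp2 thus went from the first to the fourth place and Vegfa from the third to the first. With the length of the longest transcript in place of all exons, Nrp1 stood above Vegfa in both groups. Among all tested genes, Nrp2 lay above 97.1% per kilobase in control and above 76.9% after dexamethasone, and Vegfa above 84.7% and 90.5%.

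The summed ligand level was somewhat lower after dexamethasone, and its make-up changed. The sums did not overlap between the groups (4580 to 4883 in control, 4122 to 4402 after dexamethasone), and their difference was not tested. The 5 ligands summed to 4730.1 ± 152 normalized counts per kilobase in control and 4219 ± 159 after dexamethasone (SD, n = 3 each). Vegfa made up 29.0% ± 0.986 of this sum in control and 56.0% ± 0.489 after dexamethasone, Vegfb 49.2% and 35.4%, and Vegfd 20.9% and 7.57%. Vegfc and Pgf together stayed a minor share, at 0.532% and 0.296% in control and 0.414% and 0.610% after dexamethasone. The summed neuropilin level fell from 6443 ± 198 to 2592 ± 107 normalized counts per kilobase, and the share of Nrp2 in it went from 83.2% ± 0.378 to 40.0% ± 0.911. The receptor genes kept their make-up, with Flt1 at 89.3% ± 0.442 of the summed receptor level in control and 89.7% ± 0.0689 after dexamethasone.

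**Figure D3:**
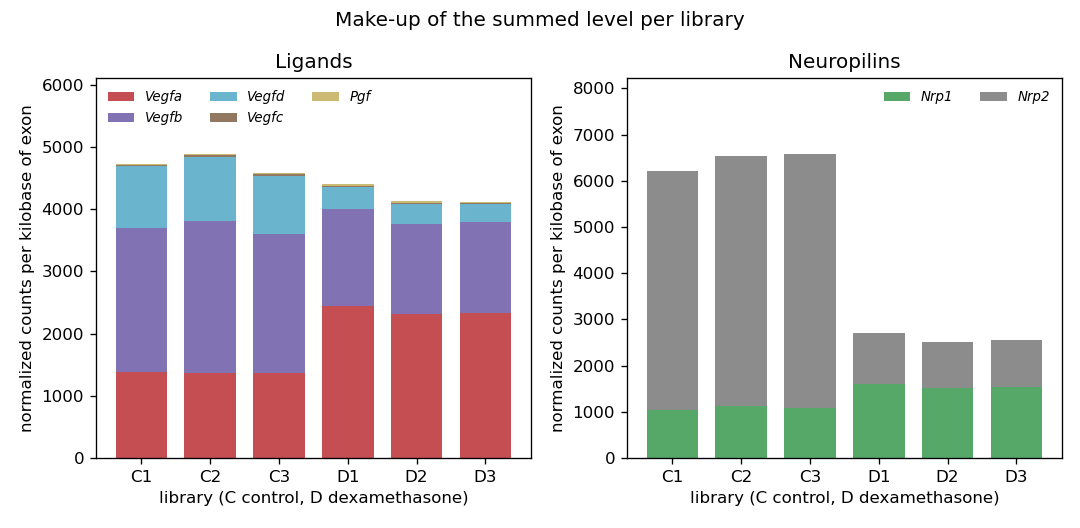
Stacked bars of normalized counts per kilobase of exon in each library, for the 5 ligands (left) and the 2 neuropilins (right), C for control and D for dexamethasone. The ligand bars are somewhat lower after dexamethasone while the Vegfa part grows from 29.0% to 56.0%. The neuropilin bars shrink as the Nrp2 part goes from 83.2% to 40.0%.

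Ratios within a library, which do not depend on its size factor, were compared for 6 pairs by an exact two-sided permutation test over the libraries, adjusted over these 6, in a design whose smallest possible p is 0.1. The ratio of Nrp1 to Nrp2 per kilobase was 0.203, 0.206 and 0.196 in control and 1.44, 1.52 and 1.54 after dexamethasone. The libraries of the groups lay far apart, and the ratio was 7.44-fold higher after dexamethasone, at the smallest exact p of 0.1 (adjusted 0.15). Vegfb to Vegfa went from 1.67, 1.79 and 1.63 to 0.641, 0.623 and 0.632, so the more abundant of these ligands per kilobase changed (exact p = 0.1, adjusted 0.15). Vegfa relative to the summed receptors was 3.89, 3.74 and 3.73 in control and 5.20, 5.44 and 5.34 after dexamethasone, 1.41-fold higher (exact p = 0.1, adjusted 0.15). Vegfc to Vegfa was also separated, with a log2 change of -1.32 (exact p = 0.1, adjusted 0.15). Flt1 to Kdr was 8.36, 8.85 and 8.01 in control and 8.70, 8.60 and 8.75 after dexamethasone, with overlapping groups and a log2 change of 0.05 (exact p = 0.4, adjusted 0.48). Pgf to Vegfa overlapped too, with a log2 change of 0.09 (exact p = 0.5), which turned to -0.06 without control replicate 1 and to -0.02 without dexamethasone replicate 2.

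The genes whose 6 library values were nearest to those of Vegfa, after each gene was centred on its own log2 mean, were Homer1 at a Euclidean distance of 0.0282, Supt16 at 0.0437 and Slc43a2 at 0.0449, among 12020 genes with a mean of at least 100. For Flt1 they were Numa1 at 0.0194, Heca at 0.0216 and Stk39 at 0.0299. With 6 libraries in 2 groups, such likeness is mostly a like difference between the groups.

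Genes that act on or with the VEGF family were described by 7 lists, of which 125 of the 134 genes in the table were tested. Of these 125, 66 rose, 40 fell and 19 did not pass, with a median log2 fold change of 0.19 against 0.00 over all tested genes. There were 22 called higher and 17 called lower. The 22 include Ccbe1 and Sh2d2a, which passed the filter through the treated libraries alone. The backgrounds given above for all tested genes apply to each list.

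Of 18 genes for proteins that process VEGF ligands or hold them in the matrix, 15 were tested. Of these, 7 rose and 8 fell, 4 were called higher and 7 lower, and the median log2 fold change was -0.11. Ccbe1, the cofactor that lets Adamts3 cleave Vegfc, had 2, 3 and 7 reads in control and 274, 257 and 217 after dexamethasone, or 3.64 ± 2.24 and 265 ± 14.2 normalized counts (SD, n = 3 each). It passed the filter through the treated libraries alone, and its control reads lie near the 3 that a count of 0 allows, so its fitted log2 fold change depends on the pseudocount and is not given as a size. Adamts3 itself was below the filter, while the related proteinase Adamts2 rose by a log2 fold change of 2.21. Ccn2, connective tissue growth factor, which binds Vegfa, rose by 3.26. Thbs1, thrombospondin, an inhibitor of vessel growth that binds Vegfa, fell by 2.25 on the log2 scale, from 168771 to 35446 normalized counts. The proteoglycan Dcn fell by 1.51 and the membrane proteinase Mmp14, which can release bound Vegfa, fell by 1.24. The heparan sulfate proteoglycan Hspg2 fell by 0.11 (limma, adjusted p = 0.0266), with groups that overlapped. That difference is about the size of the shift of all genes under scaling to the same total.

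Of 52 tested genes of receptor signalling, 29 rose, 11 fell and 12 did not pass, with 6 called higher and 3 lower. The median was 0.19, which was 0.08 at the same total and 0.01 under quantile normalization. The median of all tested genes was -0.11 and -0.07 under these scalings. Among the 6, Sh2d2a had 2, 1 and 0 reads in control and 26, 10 and 19 after dexamethasone. It passed the filter through the treated libraries alone, so its call rests on few reads and its fold is not given. Sphk1, sphingosine kinase, rose by 1.69, the phosphatase Ptprj, which acts on Kdr, rose by 1.63 and the adaptor Nck2 went from 1386 to 3409.7 normalized counts. Nfatc4, a calcineurin-dependent transcription factor, went from 7594 to 2181 normalized counts and Ptprb, an endothelial phosphatase, fell by 1.25. The most abundant members, Iqgap1 and Rac1, rose by 0.53 and 0.57. Of 14 genes of receptor trafficking and partners, 10 rose and 3 fell, 5 were called higher and 1 lower, and the median was 0.46. The heparan sulfate carrier Sdc4 rose by 2.28, the endocytic adaptor Dab2 by 2.08 and Efnb2, a regulator of receptor uptake, by 1.99. The proteoglycan Gpc1 fell by 1.95 and the integrin Itgb1 differed by 0.11 (limma, adjusted p = 0.0199), about the size of the shift of all genes under scaling to the same total.

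The semaphorin side of the neuropilins also moved both ways, with 5 of 11 tested genes rising and 5 falling, 2 called in each direction and a median of -0.19. Sema3c, a ligand of Nrp1 and Nrp2, fell by 3.83 on the log2 scale, from 8715 to 610.4 normalized counts, the largest fall of the named pathway genes. Sema3a, the main ligand of Nrp1, rose by 0.69 and the plexin Plxna1 rose by 0.45. Sema3g rose by 1.52 and Sema3e, which binds a plexin without a neuropilin, rose by 1.34.

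**Figure D4:**
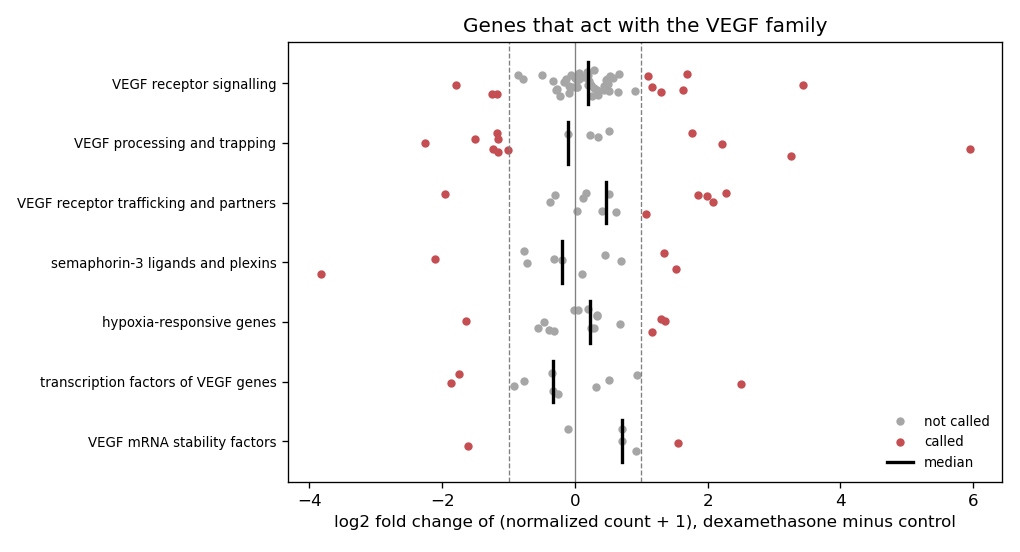
Log2 fold changes (dexamethasone minus control, of the normalized count plus 1) of the tested genes in the 7 lists, red where called and grey where not, with a black line at each median and dashed lines at the cut-off of 1. Medians lie between -0.34 and 0.71, and Sema3c lies at -3.83. The point farthest to the right is Ccbe1, whose control libraries held 2 to 7 reads, so that its place depends on the pseudocount. The place of Sh2d2a, with 0 to 2 control reads, depends on it as well.

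Genes induced by hypoxia, a textbook stimulus of Vegfa, moved in both directions. Of 16 tested, 8 rose, 5 fell and 3 did not pass, with 3 called higher and 1 lower. Over all tested genes, 37.2% rose and 35.2% fell. The median of the list was 0.22, which was 0.11 at the same total and 0.09 under quantile normalization. The median of all tested genes was -0.11 and -0.07 under these 2 scalings. The part of hypoxia in the Vegfa difference was not tested. The glycolytic genes Pfkfb4, Slc2a1 and Pgk1 rose, with Pgk1 up by 1.16 on the log2 scale and Slc2a1 from 3319 to 8189 normalized counts, and Ldha rose by 0.33, while Ndrg1 fell by 1.65. Of 11 tested transcription factors that act on VEGF genes, 3 rose and 7 fell, with a median of -0.34. The immediate early factor Egr1 rose by 2.51 and Sp1, which binds GC boxes, rose by 0.32. The osteoblast factors Sp7 and Runx2 fell by 1.86 and 1.75, and Nr3c1, the glucocorticoid receptor, fell by 0.92. Of 6 factors of VEGF mRNA stability, 4 rose and 1 fell, with a median of 0.71. The related decay factors Zfp36l2 and Zfp36l1 moved in opposite directions, by 1.56 and -1.61, and Hnrnpl, which binds the Vegfa message, rose by 0.70.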

How the data were processed

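RNA-seq libraries of 3 control and 3 dexamethasone-treated samples were grouped by the labels, which call them biological replicates. The deposited values were a signal in which the authors had divided read counts per gene by size factors. The submitters' processing notes name STAR 2.7.10a, DESeq2 1.36.0 and the build GRCm39. Values came out as whole reads in 100% of cases (tolerance 0.001 reads), 0 columns were left unused, and symbols were given for 28087 genes. Exon lengths and symbols came from GENCODE M21 and promoters from RefSeq, both on GRCm38, so their coordinates are not those of the files. Exon bases of the members overlapped 0% with genes on the opposite strand.

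Genes with a mean of at least 10 were fitted with limma 3.58.1 in R 4.3.3 (trend, log2 of the value plus a pseudocount of 1). P-values were adjusted by Benjamini-Hochberg across the fitted genes. The fit was tested on simulated data in which few genes changed and every gene had the same relative spread beyond counting noise. That setting differs from these libraries, so the test does not give the error of the fit here. Genes past an adjusted p of 0.05 whose log2 difference was 1 or more in size were called. Alternatives were pseudocounts of 0.5 and 5, other filters and scalings, the recovered reads in edgeR 4.0.16 and in DESeq2 1.42.0, a replicate block and each library left out. Replicates differed by more than counting noise (chi-square per degree of freedom 3.27 to 26.1, the highest for dexamethasone replicate 3). The members and lists were chosen with earlier results of these data known. Named from each list were up to 3 called genes per direction with a mean of at least 100, by size of change, and the 2 most abundant. Of each marker list, the 3 most abundant genes and defining markers at 0 were to be named. The other called markers, except Alpl and Ibsp, were named after their values were seen. Aldoa was left out because 2 identifiers share its symbol.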

Additional observations from a re-analysis of the deposited data

How the results depend on the processing

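Over 17 alternatives, 151 fold changes of the 9 tested members were recomputed. None reversed, 143 stayed on their side of the adjusted p of 0.05 and 8 missed it, 7 of Vegfc and 1 of Kdr. Fits without 1 library gave 0 to 1 members called higher (Pgf without dexamethasone replicate 3), and a log2 change of the ratio of Pgf to Vegfa from -0.058 to 0.277, reversed without control replicate 1 (-0.058) and without dexamethasone replicate 2 (-0.019), and the cause was not tested. With a mean of at least 100 as the filter, 1350 genes were called higher and 820 lower, against 2037 and 1857, because fewer genes were tested, and Vegfc and Pgf were then not tested. The median of the processing and trapping list was then 0.06 in place of -0.11. With every library at the same total, the medians of all lists moved with the shift of -0.11. Quantile normalization moved the list medians to between -0.49 and 0.52 and that of all genes to -0.07. The replicate numbers did not pair the libraries (correlations of same-numbered deviations -0.10, -0.10 and -0.02). A fit with the replicate block called 2035 genes higher and 1862 lower and left the members at 0 called higher and 2 lower. The depth limits Vegfc, Pgf and Flt4, which had under 100 reads in every library.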
